A study of Mus musculus with 24 samples.

Results

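The circadian clock genes described here are 10 transcripts of the hepatic clock, namely Arntl, Npas2, Dbp, Tef, Per1, Per2, Per3, Nr1d1, Nr1d2 and Ciart. They were chosen by name, with earlier results of these data known, and matched by Ensembl gene ID to symbols in the p16-3MR count table and by label in the wild-type count table. All 10 were identified among 21755 rows of the p16-3MR table. In the wild-type table, whose labels lack some lower-case letters, 4 were identified among 12643 rows (Nr1d1, Nr1d2, Ciart and Npas2), and the labels that could stand for the other 6 each matched several genes and were not used.

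The series holds 24 mouse livers profiled by Smart-3SEQ, a 3′-end RNA-seq method, in 8 groups of 3. In batch 1, p16-3MR transgenic females (F) and males (M) were given ganciclovir (GCV, 150 mg/kg by the labels) or vehicle (VEH, water at pH 11) intraperitoneally on 5 consecutive days each month, from an age of 16 to 18 months. By the study's methods, their livers were collected many months after treatment began, so the mice were older than at its start. In batch 2, wild-type females and males were given GCV or VEH monthly from 6 months of age, and their livers were collected 3 months later. The p16-3MR transgene places a viral thymidine kinase, which turns GCV into a toxic product, under the p16 (Cdkn2a) promoter, so that GCV removes cells in which that promoter is active. The p16-3MR VEH livers carry the transgene as well. Genotype, age, length of treatment, batch and the set of listed genes all differ between the tables and cannot be told apart. Each table was therefore fitted on its own. The hour at which each liver was taken is not given in the sources used here, and its part in any difference below was not tested.

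The molecular clock is a feedback loop of transcription. BMAL1, the product of Arntl, pairs with CLOCK or with the CLOCK paralogue NPAS2 and activates genes through E-boxes. Among these are its own repressors (the Per genes and Ciart, also called Chrono) and the nuclear receptors REV-ERBα and REV-ERBβ (Nr1d1 and Nr1d2), which repress Arntl and Npas2 through ROR response elements. DBP and TEF are PAR bZIP activators that bind D-boxes and carry the rhythm to genes of liver metabolism. In the liver of a mouse kept on a light-dark cycle, Arntl and Npas2 therefore peak at a time of day when Dbp, Tef, Nr1d1 and Per3 are low, and the reverse.

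Some of the reference promoters hold such elements. Among RefSeq promoter windows (250 bases before to 50 after each annotated start, GRCm38.p6), 12 windows belonged to 9 of the genes, and none to Per2. The search covered the E-box CACGTG, the E-box variant CACGTT, the D-boxes TTATGTAA and TTACGTAA, and the ROR response elements ANNTAGGTCA and ANNTGGGTCA, on both strands. The windows that hold such an element are shown, 5′ to 3′ on the strand of the gene, with the element in capitals, because E-boxes, D-boxes and ROR response elements are the sites through which the arms of the loop act.
Ciart: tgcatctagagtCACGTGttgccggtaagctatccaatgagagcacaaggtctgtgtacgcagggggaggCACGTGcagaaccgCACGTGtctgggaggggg
Per1: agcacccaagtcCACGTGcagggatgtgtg
Tef (upstream start): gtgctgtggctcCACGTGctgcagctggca
Tef (downstream start): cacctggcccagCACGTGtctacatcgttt
Nr1d1: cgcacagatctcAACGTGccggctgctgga
Per3: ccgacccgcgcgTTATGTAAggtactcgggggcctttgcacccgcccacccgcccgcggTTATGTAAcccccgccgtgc
Arntl: agggaaggcagaAAGTAGGTCAgggacgga

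The Ciart stretch (chr3:95882255-95882356, minus strand) held 3 E-boxes, beginning 116, 58 and 44 bases before the start. The single E-boxes of Per1 (chr11:69098771-69098800, plus strand) and of the Tef starts (chr15:81802534-81802563 and chr15:81811264-81811293, plus strand) began 166, 127 and 138 bases before their starts. The Nr1d1 stretch (chr11:98775388-98775417, minus strand) held the variant E-box in reverse orientation 28 bases before the start. The Per3 stretch (chr4:151044804-151044882, minus strand) held 2 D-boxes, 205 and 158 bases before the start. The Arntl element (chr7:113207526-113207555, plus strand) lay after the start, from base 28 of the transcript. No element was found in the windows of Npas2, Dbp and Nr1d2, nor in the other window of Arntl and of Per1. Of all 32851 windows, 7.15% held the E-box, 4.68% the variant, 1.06% a D-box and 1.6% a ROR response element, and none of the elements shown overlapped another. A match of letters is a description and shows no binding.

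Total counts ran from 5005760 to 7160172 in the p16-3MR livers and from 3084517 to 5667904 in the wild-type livers, so that 3 counts, the floor used here, were worth 0.293 to 2.32 CPM (counts scaled to library depth with TMM factors) and 0.516 to 0.943 CPM. One p16-3MR library stood apart, that of GCV female 33, with 64.0% of its counts from mitochondrially encoded genes against 12.3% to 22.4% in the other 11. It had 13409 genes with counts, and its normalization factor was 0.259 against 0.850 to 1.80. The differences in females are given with this liver, and the values without it stand beside those it moved most. The biological coefficient of variation was 55.8% among the p16-3MR livers and 16.6% among the wild-type livers. Hepatocyte markers were abundant in every liver, with a summed level of at least 24334 CPM for 5 markers in the p16-3MR table.

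In p16-3MR females, the genes of the loop lay on opposite sides of zero after GCV. The positive arm, Arntl and Npas2, was lower than in VEH females, by 1.87 and 2.08 on the log2 scale, while all 8 genes of the repressor and output arm had higher levels fitted by edgeR, from 1.00 log2 units for Nr1d2 to 5.04 for Dbp (with limma-voom weights, Nr1d1 and Nr1d2 turned negative). By edgeR's quasi-likelihood test, 8 of the 10 genes were past an unadjusted p of 0.05, 6 higher and 2 lower, where 7.37% of all genes were (5.05% higher and 2.32% lower). None passed at an adjusted p of 0.05, with adjusted p from 0.646 to 0.738, and no gene of the table did by edgeR (0%). DESeq2 called 1 of the 10, Dbp, at an adjusted p of 0.0190, where it called 0.397% of all genes, and limma-voom called 0. By limma-voom with sample quality weights, 3 of the 10 were past an unadjusted p of 0.05, where 11.8% of all genes were. The median log2 fold change of the 10 genes was 1.76 and that of all genes was 0. Leaving out a single liver moved the count of genes past an unadjusted p of 0.05 to 4 (without VEH female 27 or 29, where 4.59% and 4.29% of all genes were) or 5 (without GCV female 33 or 35, where 4.59% and 12.4% were), and to 10 without GCV female 31 (6.87%).

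**Figure D1:**
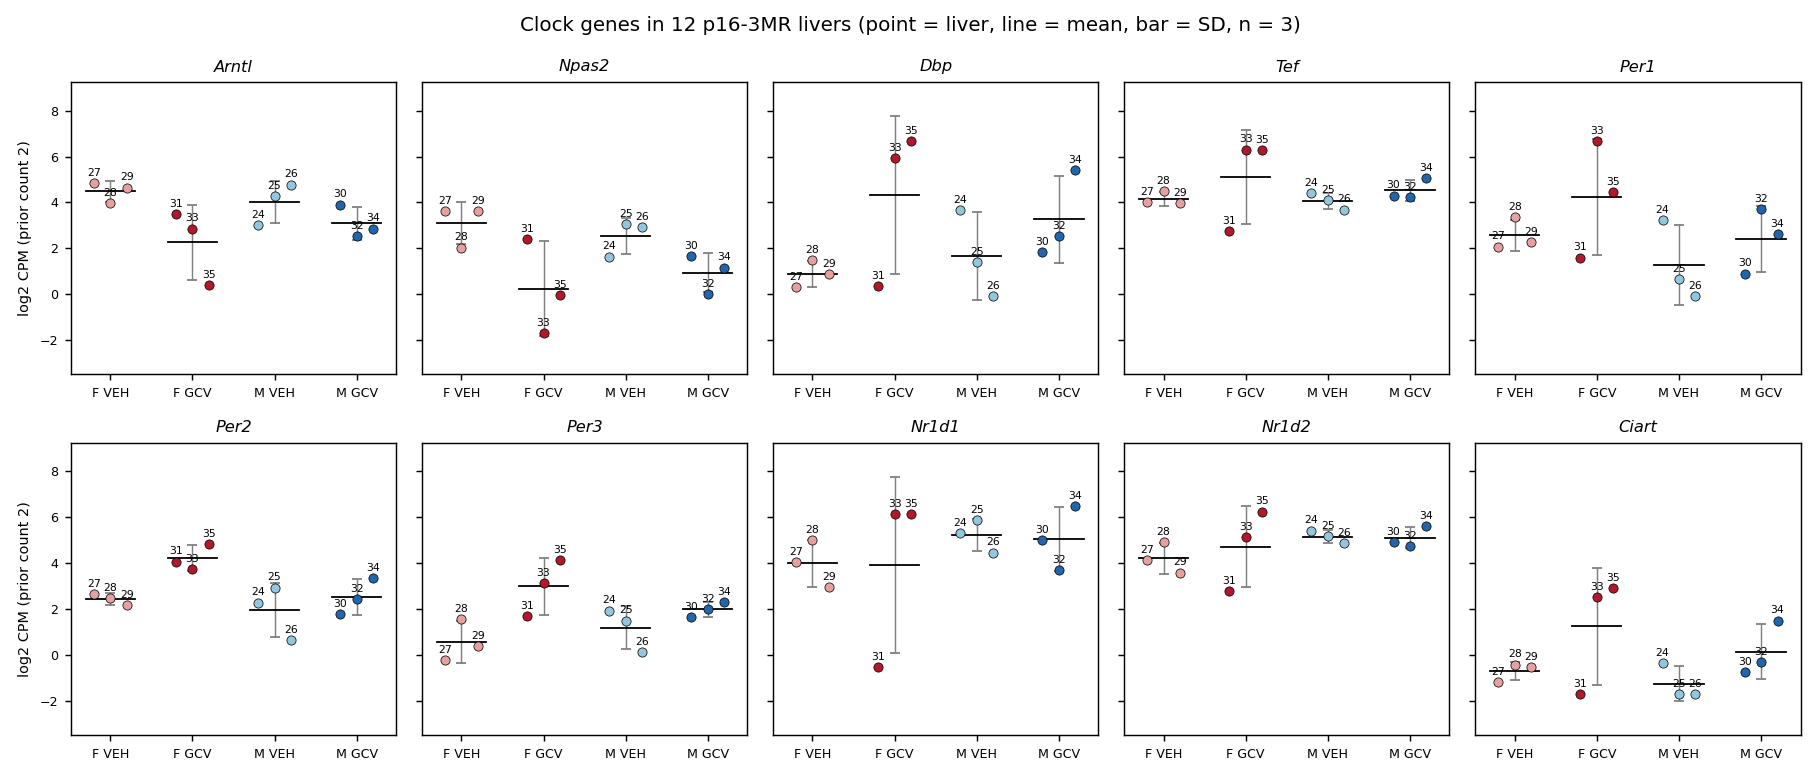
Level of each clock gene in the 12 p16-3MR livers, as log2 CPM with a prior count of 2, by sex and treatment. Each point is a liver with its number, the line is the group mean and the bar the SD (n = 3). In the GCV females, livers 33 and 35 lie apart from liver 31 for Dbp, Tef, Nr1d1, Nr1d2 and Ciart, whereas all 3 lie above the VEH females for Per2 and Per3.

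Arntl, on chromosome 7 (113207465 to 113314126, GENCODE M21, GRCm38), encodes the obligate partner of the activating complex. Its level was 28.3, 15.2 and 24.7 CPM in VEH females 27, 28 and 29 and 10.99, 6.95 and 1.01 CPM in GCV females 31, 33 and 35. All 3 treated females thus lay below all 3 controls, for a log2 fold change of -1.87 ± 0.70 (SE, edgeR adjusted p = 0.658). In males, the level was 7.70, 18.9 and 27.04 CPM in VEH livers 24, 25 and 26 and 14.7, 5.46 and 6.92 CPM in GCV livers 30, 32 and 34. The male groups overlapped, and the log2 fold change was -0.99 ± 0.66 (SE, edgeR adjusted p = 1), with -1.58 without GCV male 30 and -0.56 without VEH male 26.

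Npas2 (chromosome 1, 39193731 to 39363236) encodes the alternative partner of BMAL1. It was at 11.9, 3.76 and 12.1 CPM in the VEH females and at 5.01, 0 and 0.671 CPM in the GCV females, in the same liver order. The value of 0 was in liver 33, where a count of 0 allows a level of up to 2.32 CPM. GCV female 31 was above VEH female 28, so the groups overlapped, and the log2 fold change was -2.08 ± 0.86 (SE, edgeR adjusted p = 0.667). The male values were 2.80, 8.04 and 7.19 CPM with VEH and 2.82, 0.683 and 1.92 CPM with GCV. The difference in males, -1.74 ± 0.84 (SE, edgeR adjusted p = 1), had the lowest unadjusted p of the 10 genes in that sex.

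Dbp (chromosome 7, 45705088 to 45710203) encodes a PAR bZIP activator whose transcript is among the most rhythmic in liver. It was at 0.938, 2.46 and 1.51 CPM in the VEH females and at 0.964, 61.0 and 100.5 CPM in the GCV females. GCV females 33 and 35 stood far above every control and GCV female 31 stood among them. The fitted log2 fold change of 5.04 ± 1.45 (SE, edgeR adjusted p = 0.646) came from those 2 livers, and it was 4.89 without liver 33. In males, Dbp was at 12.49, 2.32 and 0.625 CPM with VEH and at 3.24, 5.46 and 42.3 CPM with GCV. The male groups overlapped, and the sign turned to -0.26 when GCV male 34 was left out.

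Tef (chromosome 15, 81802421 to 81826863) encodes a second PAR bZIP activator. It was at 15.8, 22.1 and 15.2 CPM in the VEH females and at 6.36, 78.8 and 77.5 CPM in the GCV females. Livers 33 and 35 were high, as for Dbp, whereas liver 31 lay below all 3 controls. The log2 fold change was 1.60 ± 0.64 (SE, edgeR adjusted p = 0.667), and it was 1.18 without liver 33. Among males, Tef lay between 12.50 and 20.8 CPM with VEH and between 18.6 and 32.7 CPM with GCV.

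The Per genes encode repressors of the BMAL1 complex. Per2 (chromosome 1, 91415982 to 91459324) was at 6.03, 5.21 and 4.15 CPM in the VEH females and at 16.4, 13.1 and 28.3 CPM in the GCV females. All 3 treated females lay above all 3 controls, liver 31 included, for a log2 fold change of 1.92 ± 0.58 (SE, edgeR adjusted p = 0.646). Per3 (chromosome 4, 151003652 to 151044665), the gene with the paired D-boxes shown above, was at 0.536, 2.60 and 1.01 CPM with VEH and at 2.89, 8.50 and 17.3 CPM with GCV. Its groups did not overlap either, although the gap between VEH female 28 and GCV female 31 was small, and the log2 fold change was 2.79 ± 0.76 (SE, edgeR adjusted p = 0.646). Per1 (chromosome 11, 69095217 to 69109960), which also answers acutely to hormonal signals, was at 3.89, 9.84 and 4.53 CPM with VEH and at 2.70, 101 and 21.5 CPM with GCV. Its groups overlapped, and its log2 fold change of 2.73 ± 1.14 (SE, edgeR adjusted p = 0.667) dropped to 0.93 without liver 33.

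Of the 9 clock genes with a mean of at least 10 counts (all but Ciart), 3 had female groups that did not overlap, Per2 and Per3 being higher and Arntl lower with GCV. Among 12388 genes with such a mean, 18.3% had such groups (8.81% higher and 9.48% lower). In males none of the 9 did, against 6.99% of genes.

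Nr1d1 (chromosome 11, 98767932 to 98775333) and Nr1d2 (chromosome 14, 18204054 to 18239127) encode the REV-ERB repressors. Nr1d1 was at 16.4, 31.4 and 7.43 CPM in the VEH females. In the GCV females it was at 70.3 and 70.1 CPM in livers 33 and 35 but at 0.386 CPM in liver 31, which is 2 counts. Liver 31 held the lowest Nr1d1, Nr1d2 and Tef levels of the 12 p16-3MR livers and no Ciart count. Nr1d2 was at 17.0, 30.2 and 11.7 CPM with VEH and at 6.55, 34.8 and 75.8 CPM with GCV. The fitted differences, 1.34 ± 1.06 for Nr1d1 and 1.00 ± 0.63 for Nr1d2 (log2, SE), were the 2 that missed an unadjusted p of 0.05 (edgeR adjusted p = 0.738 and 0.706), and both changed sign under limma-voom with sample quality weights, to -2.05 and -0.11. Single livers set both values. Nr1d1 was at 0.88 without liver 33 or liver 35 and at 1.93 without liver 31, and Nr1d2 was at 0.0039 without liver 35, 1.51 without liver 31 and 1.01 without liver 33.

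In males Nr1d1 was at 39.8, 58.8 and 21.7 CPM with VEH and at 31.4, 12.6 and 88.4 CPM with GCV, the highest value of all 12 livers being in GCV male 34. Nr1d2 lay between 28.8 and 42.4 CPM with VEH and between 26.6 and 49.0 CPM with GCV. The male differences were 0.13 ± 1.03 and -0.01 ± 0.62 (log2, SE, edgeR adjusted p = 1 for both), smaller than their errors.

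Ciart (chromosome 3, 95878503 to 95882251), the repressor with 3 E-boxes in its window, was near the floor in most p16-3MR livers. It had 1, 3 and 3 counts in the VEH females, and 0, 7 and 43 counts in GCV females 31, 33 and 35, which is 0, 5.41 and 7.21 CPM (a count of 0 in liver 31 allows up to 0.579 CPM). In 7 of 12 livers it had 3 counts or fewer. The highest male value, 2.50 CPM, was again in GCV male 34, and VEH males 25 and 26 had no count. The fitted log2 fold change in females was 3.64 ± 1.42 (SE, edgeR adjusted p = 0.667), and it rests on low counts, from 0 to 43 per female liver.

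Some of these counts could include reads of a neighbour. In GENCODE M21, exons of Nr1d1 share 263 bases with Thra, those of Dbp share 539 bases with Sphk2, those of Tef share 193 bases with Gm17597, and those of Arntl share 33 bases with Gm45355, each on the opposite strand. Whether counting used the strand is not given in the sources used here, and the part of these overlaps was not tested.

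In p16-3MR males, 0 of the 10 genes passed at an adjusted p of 0.05 by edgeR, DESeq2 or limma-voom. By edgeR, 0 were past an unadjusted p of 0.05, against 1.91% of all genes, and by DESeq2 1 was, against 1.93%. By sign, Arntl and Npas2 were lower and 7 of the other 8 genes were higher (Nr1d2 was at -0.01). Of all 21755 genes, 11490 were higher and 9909 lower by sign. The clock genes were correlated across livers, so their signs are not independent. Those of Dbp, Per1, Per2, Nr1d1 and Nr1d2 turned with single livers left out. The median log2 fold change was 0.47 against 0.04 over all genes. Leaving out VEH male 24 brought 4 of the 10 past an unadjusted p of 0.05, and 7.76% of all genes. The difference between the female and the male response was tested as an interaction. By edgeR, 0 of the 10 passed at an adjusted p of 0.05 (no p under 0.976) and 0 at an unadjusted p of 0.05, where 3.78% of all genes were. With single livers left out, the unadjusted count ran from 0 to 4. It was 4 without GCV female 31, where 3.96% of all genes were. The 3 smallest interaction p-values were those of Per3 (2.10 ± 1.03 log2 units), Dbp (3.36 ± 1.80) and Per2 (1.48 ± 0.81, SE, edgeR adjusted p = 0.976 for each), so a difference between the sexes in the response was not shown.

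**Figure D2:**
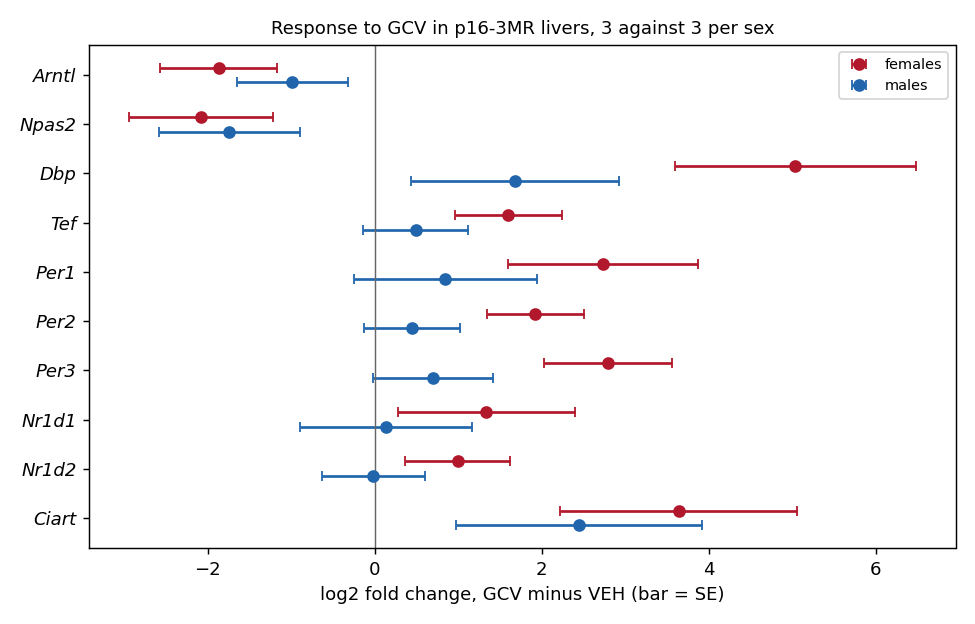
Log2 fold change of each clock gene, GCV minus VEH, in p16-3MR females and males. Bars are standard errors derived from edgeR's F statistic (3 livers against 3 per sex). Arntl and Npas2 lie left of zero in both sexes, and the other genes lie right of zero in females, with Dbp at 5.04.

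Averaged over treatment, females and males differed past an unadjusted p of 0.05 in 1 of the 10 genes, Per2, which was 0.97 ± 0.41 log2 units higher in females (edgeR adjusted p = 0.685). Of all genes, 7.05% were past that threshold. The count fell to 0 without GCV female 35, VEH female 27, GCV male 30 or VEH male 26. It rose to 3 without GCV female 31 or VEH male 24. The share of all genes ran from 4.23% to 10.3% with single livers left out. None of the 10 passed at an adjusted p of 0.05 by edgeR, where 0.303% of all genes did.

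Across the 12 p16-3MR livers, the level of Arntl was set against that of each other clock gene. Arntl correlated with Npas2 at a Pearson's r of 0.760 (Spearman's rho 0.902, permutation p = 0.00414, adjusted p = 0.0114 over 11 pairs). With Per3 it correlated at -0.925 (rho -0.972, permutation p = 1e-05, the smallest that 100000 resamples can give, adjusted p = 0.00011). With Dbp the value was -0.842 (rho -0.874, permutation p = 0.00033, adjusted p = 0.00181) and with Ciart -0.786 (rho -0.789, permutation p = 0.00205, adjusted p = 0.00752). Per2 (r = -0.704, rho -0.510, permutation p = 0.0112, adjusted p = 0.0246), Tef (r = -0.677, rho -0.657, permutation p = 0.0190, adjusted p = 0.0348) and Per1 (r = -0.631, rho -0.706, permutation p = 0.0305, adjusted p = 0.0479) were also past 0.05. Nr1d2 (r = -0.573, rho -0.531, permutation p = 0.0579, adjusted p = 0.0797) and Nr1d1 (r = -0.298, rho -0.448, permutation p = 0.316, adjusted p = 0.386) were not. Single livers moved some of these values. Arntl and Nr1d2 correlated at -0.777 without GCV female 31 (adjusted p = 0.00853), at -0.348 without GCV female 35 and at -0.377 without the 2 livers farthest from the median of Arntl. Ciart, at -0.633 without GCV female 35, was then short of the threshold (permutation, adjusted p = 0.0574), as were Per2, Tef and Per1.

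These correlations hold the differences between the groups as well as those within them. On deviations from the group means, Arntl and Per3 correlated at -0.842 (exact permutation within groups, p = 0.00849, adjusted p = 0.0934), Arntl and Dbp at -0.743, and Arntl and Npas2 at 0.501, and no pair was past an adjusted p of 0.05. Without the 2 livers farthest from the median of Arntl (GCV female 35 and GCV male 32), the values were -0.924 for Per3, -0.859 for Dbp, -0.707 for Ciart, 0.804 for Npas2, -0.625 for Per1, -0.591 for Per2 and -0.533 for Tef. The last 3 were then not past an adjusted p of 0.05. Without GCV female 33, the values were -0.947 for Per3 and -0.880 for Dbp.

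Over all pairs, the sign followed the arm. The 16 pairs between Arntl or Npas2 and the other 8 genes were all negative (r from -0.925 to -0.298, median -0.734). The 28 pairs among the other 8 genes were all positive (r from 0.00657 to 0.947, median 0.702). These pairs share genes and livers and are given as a description.

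**Figure D3:**
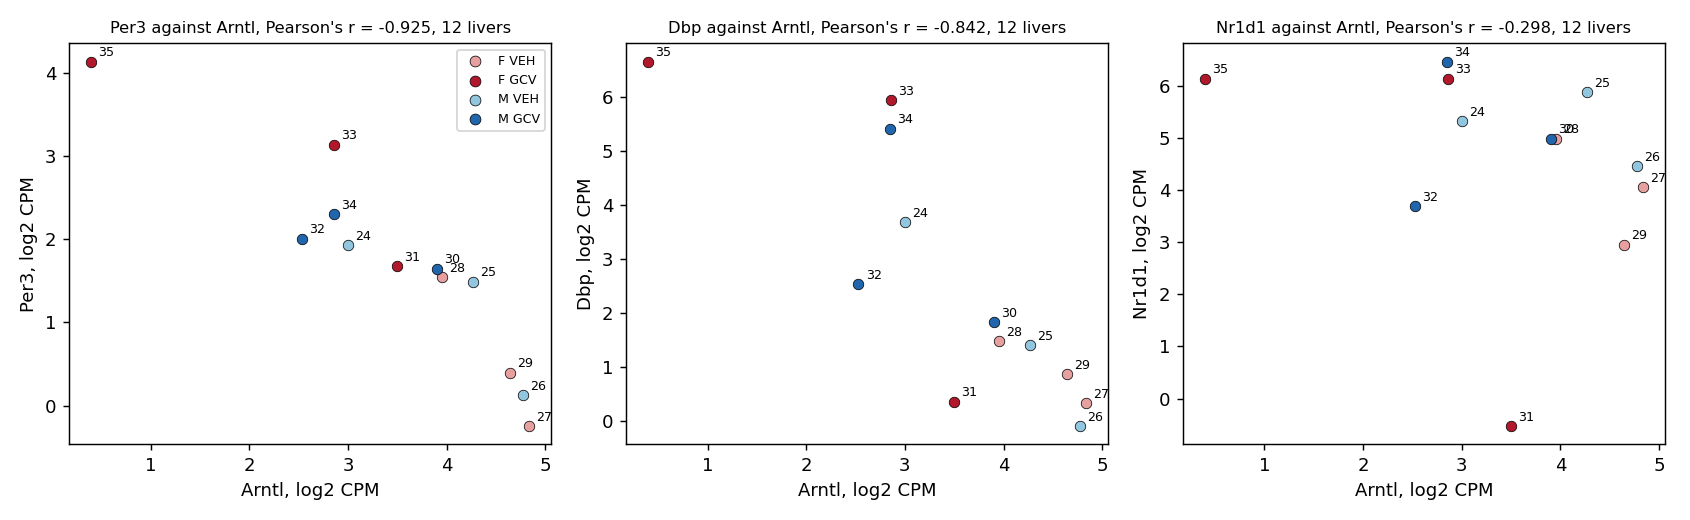
Level of Per3, Dbp and Nr1d1 against that of Arntl in the 12 p16-3MR livers, both axes in log2 CPM, with each liver numbered and coloured by group. Per3 descends with Arntl at r = -0.925 and Dbp at r = -0.842, while GCV female 31 lies far below the other livers for Nr1d1 (r = -0.298).

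A balance of the arms was computed for each liver. The mean centred log2 level of the 8 repressor and output genes was subtracted from that of Arntl and Npas2. In VEH females 27, 28 and 29 this balance was 2.58, 0.47 and 2.51, and in GCV females 31, 33 and 35 it was 1.91, -4.04 and -4.70. The treated females were therefore not alike: livers 33 and 35 lay at the low end of all 12 livers, and liver 31 lay between controls 28 and 29. In males the balance was -0.59, 1.505 and 2.69 in VEH livers 24, 25 and 26 and 0.65, -1.29 and -1.70 in GCV livers 30, 32 and 34. The group means were 1.85 ± 1.20 for VEH females, -2.27 ± 3.64 for GCV females, 1.20 ± 1.66 for VEH males and -0.78 ± 1.26 for GCV males (SD, n = 3). The difference was -4.13 in females and -1.98 in males, and in both sexes the treated and control livers overlapped. Single livers set the size of both differences. In females it was -6.22 without liver 31, -3.24 without liver 33 and -2.92 without liver 35, and in males it ran from -2.87 without VEH male 24 to -1.24 without VEH male 26.

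**Figure D4:**
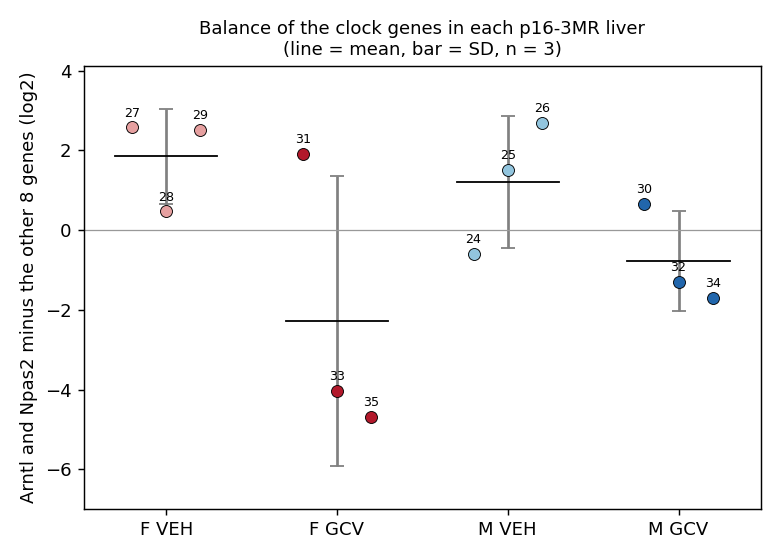
Mean centred log2 level of Arntl and Npas2 minus that of the other 8 clock genes in each p16-3MR liver, by sex and treatment (point = numbered liver, line = mean, bar = SD, n = 3). GCV females 33 and 35 lie at -4.04 and -4.70, whereas GCV female 31, at 1.91, lies within the range of the VEH females.

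Livers of the same group differed widely in some of these genes, and the SD was largest in the GCV females for all but Per2. For Dbp it was 3.45 in GCV females, 0.58 in VEH females and 1.90 in each male group. For Nr1d1 it was 3.85, with the 2 counts of liver 31, against 1.02 in VEH females, 1.39 in GCV males and 0.72 in VEH males. For Tef it was 2.05 against 0.29, 0.45 and 0.36 in the same order. The pooled SD within groups was 2.21 log2 units for Dbp, 2.14 for Nr1d1 and 1.73 for Per1, at percentiles 99.0, 98.8 and 96.6 of the 12388 genes with a mean of at least 10 counts, whose median SD was 0.61. Npas2, Tef, Arntl and Nr1d2 followed at 1.27, 1.08, 1.03 and 0.99 (percentiles 87.1, 79.7, 77.7 and 75.5), and Per3 and Per2 were at 0.91 and 0.77 (percentiles 71.9 and 63.5).

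Of 13 other core clock genes, 1 was higher and 1 lower in GCV females at an unadjusted p of 0.05, where 5.05% and 2.32% of all genes were. These were Bhlhe40, an E-box repressor, at 1.05 ± 0.42 log2 units (SE, edgeR adjusted p = 0.667), and Nfil3, a repressor at D-boxes that opposes DBP and TEF, at -1.43 (edgeR adjusted p = 0.667). Without liver 33 they were at 0.79 and -1.47, both short of that threshold, and Bhlhe41, a paralogue of Bhlhe40, was past it at -2.43, against 4.59% of all genes in either direction. Nfil3 and Clock correlated with Arntl at r = 0.865 and 0.768 over the 12 livers. In males, Clock was lower at -0.92 (edgeR adjusted p = 1) and no other gene of the list was past that threshold, where 1.91% of all genes were. Cry1, a repressor of the loop, was at 7.24, 4.92 and 21.1 CPM in the VEH females and at 17.9, 8.50 and 7.55 CPM in GCV females 31, 33 and 35, so that the groups overlapped (log2 fold change 0.05).

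Of 13 hepatic clock output genes, 4 were higher and 0 lower in GCV females at an unadjusted p of 0.05 (5.05% and 2.32% of all genes). Usp2, a ubiquitin protease, was at 2.14, 2.17 and 2.39 CPM in the VEH females and at 3.47, 28.6 and 39.9 CPM in the GCV females, for a log2 fold change of 3.41 (edgeR adjusted p = 0.646). All 3 treated livers lay above the controls, as for 8.81% of the 12388 genes with a mean of at least 10 counts. Coq10b, a coenzyme Q binding protein, was higher by 2.05 log2 units, Noct, a rhythmic phosphatase once described as a deadenylase, by 1.44, and Alas1, the rate-limiting enzyme of haem synthesis, by 1.87 (edgeR adjusted p = 0.646, 0.646 and 0.663). Without liver 33 the values were 3.21 for Usp2, 2.25 for Coq10b, 1.02 for Noct and 2.20 for Alas1, and 5 of the 13 genes were higher, where 2.44% of all genes were, the fifth being Wee1 (1.97). Usp2 and Coq10b correlated with Arntl at r = -0.777 and -0.871. Noct was also the gene of the clock lists that passed an adjusted p between the sexes, being 1.93 ± 0.30 log2 units higher in females averaged over treatment (SE, edgeR adjusted p = 0.00941). It was at 161, 128 and 115 CPM in the VEH females and 242, 527 and 330 CPM in the GCV females. The males were at 57.9, 102 and 71.7 CPM with VEH and at 60.5, 35.6 and 35.7 CPM with GCV. The call was lost without VEH male 26 (edgeR adjusted p = 0.0514) and in the VEH livers alone, where the difference was 0.83 (edgeR adjusted p = 0.863). The median log2 fold change of this list was 0.81 in females and 0.24 in males.

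In males, 0 of the 13 output genes were higher and 3 were lower at an unadjusted p of 0.05 (1.91% of all genes in either direction), Rgs16 (-2.77), Lonrf3 (-2.48) and Elovl3 (-4.69). Elovl3, a fatty acid elongase that is rhythmic and more abundant in male liver, was at 2.22, 251 and 181 CPM in the VEH males and at 0.705, 0 and 16.7 CPM in the GCV males. Thus VEH male 24 lay with the treated livers for Elovl3, as it did for Dbp and the balance. The interaction was past an unadjusted p of 0.05 for 4 of the 13 output genes, Rgs16, Noct, Usp2 and Coq10b (no edgeR adjusted p under 0.976), against 3.78% of all genes.

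The lists of glucocorticoid and feeding responses, which can also move clock genes, were read beside these values. In females 0 of 6 glucocorticoid responsive genes were past an unadjusted p of 0.05, and 1 of 8 feeding-state genes was, Cyp4a14 (-2.48), against 7.37% of all genes. Without liver 33 Cyp4a14 was at -2.16 and missed that threshold, and Pdk4 (-1.81) was past it, against 4.59% of all genes. In males 2 of 6 were higher, Fkbp5 (1.52) and Lcn2 (3.33), and 2 of 8 feeding-state genes were lower, Pdk4 (-1.60) and Cyp4a14 (-2.60), against 1.91% of all genes. Of 4 glucocorticoid responsive genes identified in the wild-type table, 1 was higher and 1 lower in GCV females at an unadjusted p of 0.05. Of 4 feeding-state genes, 1 was higher and 1 lower there, where 4.56% of all genes were past it (edgeR adjusted p at least 0.195). In wild-type males, 1 glucocorticoid gene was higher, 1 was lower and 0 of 4 feeding-state genes were past it, against 5.06% of all genes. The part of these lists in the clock gene values was not tested.

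Among the 12374 genes compared, the 10 whose levels followed Arntl most closely over the 12 p16-3MR livers were Gfod1 (r = 0.894), Asap2, Gpatch1, Ypel2, Dyrk1b, Kdm4a, Nfil3, Stat5b, Cpeb4 and Wdr91 (r = 0.835). The 10 that ran most opposite were Per3 (r = -0.925), Coq10b, Slc20a1, Dbp, Gm13981, Gm12355, Lsm4, Rpf2, Ranbp1 and Trnt1 (r = -0.778). Per3 thus stood at the far end of the table, and Clock and Npas2 were at ranks 27 and 28 at the other end.

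Marker genes of liver cell types were summed beside these values, and no marker passed at an adjusted p of 0.05 with treatment in either sex of the p16-3MR table. In females the summed level of 5 Kupffer cell markers was 274 to 885 CPM in VEH females and 102 to 315 CPM in GCV females, and all 5 were lower by sign, none past an unadjusted p of 0.05. Of 5 lymphocyte and neutrophil markers, 2 were lower, Cd79a (-2.86) and Ms4a1 (-2.52), with sums of 10.5 to 317 CPM in VEH and 11.1 to 198 CPM in GCV females, where 2.32% of all genes were lower. Hepatocyte markers summed to 83546 to 107982 CPM and 94845 to 154440 CPM, with 0 of 5 past that threshold. Sinusoidal endothelial markers summed to 119.8 to 194 and 88.9 to 161 CPM (1 of 5 lower). Stellate cell markers summed to 304 to 392 and 250 to 295 CPM (0 of 5). Cholangiocyte markers summed to 34.7 to 98.0 and 36.6 to 142 CPM, with 1 of 5 higher, where 5.05% of all genes were higher. Without liver 33, the sums in GCV livers 31 and 35 were 102 to 315 CPM for Kupffer cell markers. They were 11.1 to 47.6 CPM for lymphocyte and neutrophil, 88.9 to 101 CPM for sinusoidal endothelial and 36.6 to 142 CPM for cholangiocyte markers. In the fit without liver 33, Cd79a (-3.11), Ms4a1 (-2.71) and 2 of 5 endothelial markers were lower, where 2.15% of all genes were. Of the cholangiocyte markers, 0 of 5 were then past the threshold, where 2.44% of all genes were higher. In males, Kupffer cell markers summed to 141 to 1575 CPM with VEH and 204 to 2651 CPM with GCV, 4 of 5 being higher by sign and none past the threshold. Cholangiocyte markers summed to 50.3 to 64.1 CPM and 85.9 to 143 CPM, with 2 of 5 higher, Krt19 (3.77) and Epcam (1.72), where 1.91% of all genes were past the threshold. Hepatocyte markers summed to 38289 to 83038 CPM and 24334 to 78336 CPM, and lymphocyte and neutrophil markers to 6.41 to 145 CPM and 22.3 to 411 CPM (0 of 5 for each). No listed marker was at 0 in all livers of a group. In whole liver RNA, fewer cells of a type and less RNA per cell cannot be told apart, and the part of these values in the clock gene values was not tested.

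In the wild-type livers, Nr1d1 and Nr1d2 did not pass the test with treatment. Nr1d1 was at 40.6, 57.7 and 54.1 CPM in VEH females 4, 5 and 6, at 47.4, 36.8 and 42.5 CPM in GCV females 4, 5 and 6, at 35.7, 46.1 and 53.6 CPM in VEH males 1, 2 and 3 and at 37.1, 46.0 and 24.7 CPM in GCV males 1, 2 and 3. Treated and control livers overlapped in both sexes, with log2 fold changes of -0.26 ± 0.19 in females and -0.32 ± 0.20 in males (SE, edgeR adjusted p = 1 and 0.889). Nr1d2 lay between 36.4 and 63.2 CPM in all 12 livers, with log2 fold changes of -0.15 ± 0.16 and -0.20 ± 0.16 (SE, edgeR adjusted p = 1 and 0.900). The pooled SD within groups was 0.31 for Nr1d1 and 0.22 for Nr1d2, at percentiles 63.6 and 41.4 of 8613 genes with a median SD of 0.25, and that of Ciart was 0.67, at percentile 96.1. The values of Nr1d1 and Nr1d2 lie beside 2.14 and 0.99 in the p16-3MR table, which differs in age, genotype and batch, and that difference was not tested.

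Ciart had the lowest unadjusted p of the 4 identified wild-type genes in females. It was at 5.85, 3.76 and 8.46 CPM in the VEH females and at 2.71, 2.30 and 1.46 CPM in the GCV females. All 3 treated females lay below all 3 controls, for a log2 fold change of -1.49 ± 0.50 (SE, edgeR adjusted p = 0.977), whose sign is opposite to that of Ciart in the p16-3MR females. Of 8613 genes, 11.5% had groups without overlap in this comparison. Ciart was 1 of the 4 identified genes past an unadjusted p of 0.05, where 4.56% of all genes were, and 0 of the 4 passed at an adjusted p of 0.05, where 0.00791% of all genes did. DESeq2 and limma-voom called 0 of the 4 as well. With the replicate number as a block, Ciart was called (-1.48, edgeR adjusted p = 0.0480), although the numbers do not pair the livers. These values rest on 8 to 12 counts in the GCV females.

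In wild-type males, Ciart was at 10.4, 3.28 and 4.45 CPM with VEH and at 9.75, 5.54 and 2.75 CPM with GCV. The difference was 0.02 ± 0.45 (log2, SE). Past an unadjusted p of 0.05 were 0 of the 4 genes (5.06% of all genes), but Npas2 had no count in any male liver and could not pass. None of the 3 with a mean of at least 10 counts had groups without overlap (9.67% of genes). The female response of Ciart was 1.51 ± 0.68 log2 units below the male one (edgeR adjusted p = 0.982), where 4.45% of all genes were past an unadjusted p of 0.05. Averaged over treatment, Ciart was at -0.73 ± 0.34 in females relative to males (log2, SE, edgeR adjusted p = 0.230), where 20.1% of all genes were past an unadjusted p of 0.05 and 7.94% past an adjusted one. Npas2 had 0 to 2 counts in every wild-type liver, under the floor of 3 counts, and no fold change is given for it.

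**Figure D5:**
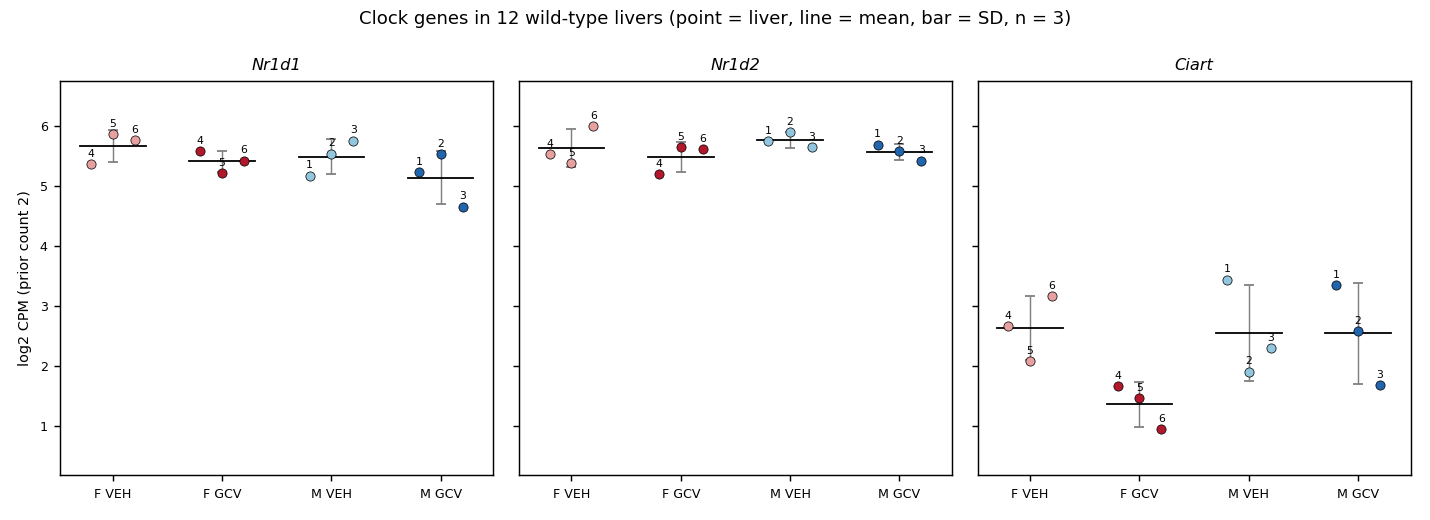
Level of Nr1d1, Nr1d2 and Ciart in the 12 wild-type livers, as log2 CPM with a prior count of 2, by sex and treatment (point = numbered liver, line = mean, bar = SD, n = 3). For Nr1d1 and Nr1d2 the groups overlap, and the 3 GCV females, at 1.46 to 2.71 CPM, lie below the 3 VEH females for Ciart.

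Nr1d1 stood in for Arntl in correlations over the wild-type livers, a choice made after the table had been seen. Its r was 0.131 with Nr1d2 (Spearman's rho -0.0210, permutation p = 0.680, adjusted p = 0.748) and 0.0757 with Ciart (rho -0.0210, permutation p = 0.820, adjusted p = 0.820). Of 6779 genes compared, those that followed Nr1d1 most closely included Grpel2 (r = 0.912), Gm10420, Tm7sf2, Shf, Zfp143, Phlpp2, Timm17b, Dennd4a and Notch2 (r = 0.842). The most opposite included Bzw1 (r = -0.877), Gm14403, Ccdc127, Hspa8, Pyroxd2, Stip1, Hsp90aa1, Thop1 and Zbed4 (r = -0.804). Hspa8, Stip1 and Hsp90aa1, at r = -0.844, -0.823 and -0.821, encode cytosolic chaperones or a co-chaperone. Whether chaperone genes were more frequent there than among other genes was not tested.

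Of the 6 hepatic output genes that could be identified in the wild-type table, 1 was past an unadjusted p of 0.05 in GCV females, Nampt, the rate-limiting enzyme of NAD salvage, which was lower (-0.48), against 4.56% of all genes. In wild-type males 2 of the 6 were, of which Cyp7a1, the rate-limiting enzyme of bile acid synthesis, was higher (0.67) and Elovl3 was lower (-0.64), against 5.06% of all genes. Between the sexes, averaged over treatment, 2 of the 6 output genes and 2 of 5 identified other core clock genes passed at an adjusted p of 0.05, where 7.94% of all genes did. Rgs16 was higher in females (1.64 ± 0.32), and Elovl3 (-4.75 ± 0.25), Bhlhe41 (-1.42 ± 0.32) and Nfil3 (-0.66 ± 0.19) were lower (log2, SE, edgeR adjusted p = 0.00140, 4.04e-12, 0.00652 and 0.0338). The call of Nfil3 was lost in the VEH livers alone and without any of 7 single livers, with adjusted p up to 0.161.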

How the data were processed

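Liver RNA libraries were made by Smart-3SEQ. The authors trimmed reads with Trim Galore 0.6.10 and quantified them with Salmon 1.10.3 (build mm10 in the submitters' processing notes), and summarised them per gene. The authors deposited estimated counts per gene, one table for the p16-3MR livers and another for the wild-type livers, and these were rounded here. Wild-type labels that lack letters were used only where they matched 1 symbol (10496 of 12643; 2067 matched several and 80 none).

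Each table was fitted with edgeR 4.0.16 (TMM factors, 1 mean per group over 12 livers, quasi-likelihood test, Benjamini-Hochberg over all rows, threshold 0.05). The quasi-likelihood test gives no standard error. Each SE of an edgeR difference was derived as the size of the log2 fold change over the square root of its F statistic. Levels are TMM-scaled CPM, and log2 values use a prior count of 2. Correlations used 100000 two-sided permutations, or all 1296 within-group ones for deviations. DESeq2 1.42.0 and limma 3.58.1 (voom with sample quality weights) were alternatives, with other filters, scalings and single livers left out. Scripts were tested on simulated data. Nothing states that the libraries of a group came from separate cages or days, so p-values measure the spread between these libraries, and counting floors cover counting error only.

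The 10 genes and all lists were chosen with earlier results of these data known. The genes named are the 10, listed clock, glucocorticoid and feeding genes past an unadjusted p of 0.05 or with r above 0.7 in size, and the 10 genes nearest to and farthest from Arntl (wild type: Nr1d1); a few named by this rule are not reported here. The labels' GCV dose is used; the study's methods state a lower one. Sequences are RefSeq, GRCm38.p6; gene positions are GENCODE M21.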

Additional observations from a re-analysis of the deposited data

How the results depend on the processing

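None of the 10 clock genes was called in the p16-3MR table at an adjusted p of 0.05, apart from Dbp in females under DESeq2 (1 gene). The counts past an unadjusted p of 0.05 moved more, as did the share of all genes past it in the same fit. In females, 8 became 3 under limma-voom (11.8% of all genes) and 4 to 10 with single livers left out (4.29% to 12.4%). In males, 0 became 1 under DESeq2 (1.93%), limma-voom (23.1%) and the fit to the 6 males (1.70%), and 0 to 4 with livers left out (0.910% to 7.76%; 4 without VEH male 24, at 7.76%, 1 without GCV male 30 or any GCV female). For the interaction, 0 became 1 under limma-voom (15.5%) and 0 to 4 with livers left out (2.22% to 8.48%; 4 without GCV female 31, at 3.96%, 3 without VEH male 26, at 2.56%, 2 without GCV male 34, at 6.23%). For females against males, 1 became 2 under DESeq2 (6.93%), 3 under limma-voom (12%) and 0 to 3 with livers left out (4.23% to 10.3%; 3 without GCV female 31 or VEH male 24, 0 without GCV female 35, VEH female 27, GCV male 30 or VEH male 26). The cause was not tested.

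In p16-3MR females, leaving out livers gave -2.82 to -1.30 for Arntl, -4.17 to -1.60 for Npas2, 0.93 to 3.31 for Per1, 0.88 to 1.93 for Nr1d1, 0.0039 to 1.51 for Nr1d2, 1.18 to 2.14 for Tef, 1.95 to 3.55 for Per3 and 2.81 to 4.26 for Ciart. Under limma-voom the sign turned for Nr1d1 (-2.05) and Nr1d2 (-0.11) in females and for Per2 (-0.057) and Nr1d1 (-0.26) in males. Leaving out livers gave both signs in males, from -0.26 to 3.50 for Dbp, -0.16 to 2.87 for Per1, -0.085 to 1.01 for Per2, -0.87 to 0.53 for Nr1d1 and -0.32 to 0.14 for Nr1d2, and in wild-type livers from -0.27 to 0.046 for Nr1d2 in females and -0.47 to 0.62 for Ciart in males.

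On deviations from group means the correlations with Arntl were 0.501 (Npas2), -0.743 (Dbp), -0.562 (Per1), -0.541 (Per2), -0.842 (Per3), -0.613 (Tef) and -0.692 (Ciart), none past an adjusted p of 0.05. Per1 also missed it with a prior count of 0.5 (-0.626) and without the 2 livers farthest from the median (-0.625), as did Per2 (-0.591) and Tef (-0.533). With single livers left out the ranges were -0.737 to -0.571 (Per1), -0.760 to -0.492 (Per2), -0.777 to -0.348 (Nr1d2), -0.795 to -0.459 (Tef) and -0.841 to -0.633 (Ciart). Per2, Tef and Ciart missed the threshold without GCV female 35, Tef also without VEH male 26, and Per1 without GCV female 35, GCV male 30 or 32, or VEH male 24, 25 or 26. Values of listed genes and marker sums without GCV female 33 were added after the data had been seen.

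In wild-type livers, replicate numbers are shared by GCV and VEH livers of a sex. Deviations of same-numbered livers correlated at -0.0570 to 0.00178 in females and -0.0663 to 0.283 in males, so the numbers do not pair them. With the replicate block, 1 gene was called in females (Ciart, -1.48, edgeR adjusted p = 0.0480) and 1 was past an unadjusted p of 0.05 in males (6.55% of all genes), as under limma-voom (1, at 8.81%), against 0; leaving out livers gave 0 to 1 (3.42% to 9.68%; 1 without GCV male 2 or VEH male 1). The interaction, with 1 gene, had 0 under DESeq2 (2.86%) and filterByExpr (4.95%) and 0 to 1 with livers left out (3.51% to 6.98%; 0 without GCV female 6, VEH female 6, GCV male 1 or VEH male 2 or 3), and females against males, with 1, had 0 under DESeq2, limma-voom, filterByExpr and VEH livers alone (13.9% to 25.1% of all genes), and 0 to 2 with livers left out (17.3% to 21.5%; 2 without GCV male 2, 0 without GCV female 5 or 6, VEH female 4 or 5, GCV male 1 or VEH male 1). Nr1d1 correlated with Ciart at -0.109 without the 2 farthest livers, and at -0.144 to 0.218 with single livers left out (Nr1d2: -0.111 to 0.319).

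No wild-type correlation with Arntl or balance of the arms was computed, because no label stands for Arntl alone and Npas2 had at most 2 counts. Depth limits Ciart in the p16-3MR livers and Npas2 in the wild-type livers.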
